A study of Mus musculus with 9 samples.

Results

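The miR-101 family of the mouse was followed here in B16F1 melanoma cells, through its hairpins mmu-mir-101a, mmu-mir-101b and mmu-mir-101c. Members were taken by name: every table entry listed under one of these hairpins, together with their mature names, was summed by hairpin and by arm. This gave 3 hairpins of the 423 that have a sequence entry, and 49 of the 6414 table entries. Of these, 23 belonged to mir-101a, 19 to mir-101b and 7 to mir-101c.

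B16F1 is an established melanoma line of C57BL/6J mouse skin, and all groups consisted of these cells, grown as 3 independent replicates each. Control cells were not exposed, a second group received 5 mM L-Tyr, the amino acid from which melanin is made, and another received 2.5 µg/mL BrdU, a thymidine analogue that is built into DNA. Both exposures lasted 72 h without a change of medium. The comparisons ask how the pigmenting agent L-Tyr and the depigmenting agent BrdU alter small RNAs of one and the same line. Small RNA was sequenced, and the 9 libraries held 144452 to 424122 counts. BrdU replicate 3 stood apart from the other 8 libraries: mir-143 3p, a miRNA of smooth muscle and fibroblasts, took 19.4% of its counts and 0.0887% to 0.732% of theirs. Results that rest on this library are therefore given with and without it.

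miR-101 is a conserved miRNA whose mature strand comes from the 3′ arm of its hairpins. It is best known for silencing Ezh2, the histone methyltransferase of Polycomb repressive complex 2, and is described as a growth-restraining miRNA in several tumours, melanoma among them. A miRNA finds its targets mainly through the seed, bases 2 to 8 from its 5′ end, so a read that begins 1 base earlier or later carries another seed.

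The annotated mature sequences (RefSeq, GRCm38.p6) are shown first, because the annotated mir-101a and mir-101b products differ in where they start. Capitals mark the seed.
mmu-miR-101a-3p: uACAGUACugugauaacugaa
mmu-miR-101b-3p: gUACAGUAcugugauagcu
mmu-miR-101c: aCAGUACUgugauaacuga
mmu-miR-101a-5p: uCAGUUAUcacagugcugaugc
mmu-miR-101b-5p: uCGGUUAUcaugguaccgaugcu

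The hairpins show both arms in capitals, with the 5p arm first and the 3p arm second.
Mir101a: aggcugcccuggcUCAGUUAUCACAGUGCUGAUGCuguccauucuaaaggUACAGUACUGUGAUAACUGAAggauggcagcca
Mir101b: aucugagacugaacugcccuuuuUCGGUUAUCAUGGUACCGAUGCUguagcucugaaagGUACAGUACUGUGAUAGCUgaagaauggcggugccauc
Both hairpins carry a G just before the first base of miR-101a-3p. The stretch covered by miR-101a-3p differs between the hairpins by 1 substitution, A16G, counted from base 1 of miR-101a-3p with the mir-101a base first. The annotated miR-101b-3p begins at the preceding G, so its seed is UACAGUA, where that of miR-101a-3p is ACAGUAC. Reads of both hairpins that begin at the same base carry the same seed.

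In NCBIM37 (mm9, the build of the deposited data), the Mir101a hairpin lies at chr4:101019550-101019632 on the minus strand, in an exon of the noncoding transcript E130102H24Rik on the same strand. Its mature miR-101a-3p lies at chr4:101019562-101019582. The Mir101b hairpin lies at chr19:29209769-29209865 on the plus strand, in an intron of the protein-coding gene Rcl1, which is transcribed in the same direction, and miR-101b-3p lies at chr19:29209828-29209846. The nearest other protein-coding genes were the adenylate kinase genes Ak4, 72250 bp from Mir101a, and Ak3, 87318 bp from Mir101b. The 19 nt of miR-101c occur 9 times in this assembly: once inside the Mir101a hairpin and 8 times on chromosome 9, the first of these at chr9:3038680-3038698.

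The deposited table lists a miRNA as the separate sequences found for it, each under a hairpin name and a start number, and 46 of the 49 family entries held counts. They summed to 7004 counts in the 9 libraries, 0.294% of all counts. mir-101a gave 3848 of them, mir-101b 2891 and mir-101c 265. All 44 sequence entries came from the 3p arm. No 5p sequence was listed, and the 5p mature names, of 22 and 23 nt, were at 0 in every library. Those names are longer than any sequence entry, so their 0 sets no limit on the 5p share. No sequence entry was longer than 20 nt, so the 21-nt miR-101a-3p was listed at 0 in every library, and its reads can be present only as shorter entries.

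The mir-101c level could not be separated from that of mir-101a. Every one of the 7 mir-101c sequences, the mature miR-101c among them, was also listed under mir-101a, as 276 counts there and 265 under mir-101c. The paired listings had identical counts in all libraries for 1 sequence and differed for the other 6, so each listing was kept as given and the family sum adds them. Conversely, 7.41% of the mir-101a counts lay in sequences that were also listed elsewhere, and 90.8% lay in sequences with a single exact place in the genome. For mir-101b 2.01% of counts were shared.

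Levels are given as CPM, counts scaled to 1000000 counts of a library total that was rescaled by edgeR's TMM factor. mir-101a 3p stood at 871, 877 and 359 CPM in the control libraries (replicates 1 to 3), from 177, 383 and 81 counts. With L-Tyr it stood at 800, 1355 and 462 CPM, from 125, 361 and 86 counts. With BrdU it stood at 454, 706 and 7871 CPM, from 78, 311 and 2246 counts. The first 8 of these libraries overlapped across the 3 conditions and spanned 3.77-fold. BrdU replicate 3 lay 5.81-fold above the highest of the others and held 58.4% of all mir-101a counts. The mean was 702 ± 297 CPM (SD, n = 3) in control cells, 872 ± 451 with L-Tyr and 3010 ± 4211 with BrdU, and 580 ± 178 (n = 2) with BrdU without replicate 3.

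mir-101b 3p stood at 1579, 1041 and 1494 CPM in the control libraries, from 321, 455 and 337 counts. With L-Tyr it stood at 1119, 600 and 499 CPM, from 175, 160 and 93 counts. With BrdU it stood at 1694, 1563 and 1300 CPM, from 291, 688 and 371 counts. BrdU replicate 3 was the lowest of its group for mir-101b and the highest of all libraries for mir-101a. The order of the means was L-Tyr (740 ± 333 CPM), control (1371 ± 289) and BrdU (1519 ± 201, SD, n = 3 each). L-Tyr and control overlapped, as did control and BrdU, while all BrdU libraries lay above all L-Tyr libraries. That separation rested on the TMM scale: as a share of the library's own total, mir-101b took 0.0973% in BrdU replicate 3 and 0.121% in L-Tyr replicate 1.

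mir-101c 3p was low: 7, 67 and 0 counts in control cells, 12, 35 and 2 with L-Tyr and 1, 60 and 81 with BrdU. Its counts passed 3, the limit that a count of 0 allows, in 6 of 9 libraries. The limit corresponded to 6.82 to 19.2 CPM. Within control, L-Tyr and BrdU it ran from 0, 10.7 and 5.82 CPM to 153, 131 and 284 CPM, and the means were 62.6 ± 80.5, 72.9 ± 60.4 and 142 ± 139 CPM (SD, n = 3). Without replicate 3 the BrdU mean was 71.1 ± 92.3 CPM (n = 2). The 3 conditions overlapped.

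**Figure D1:**
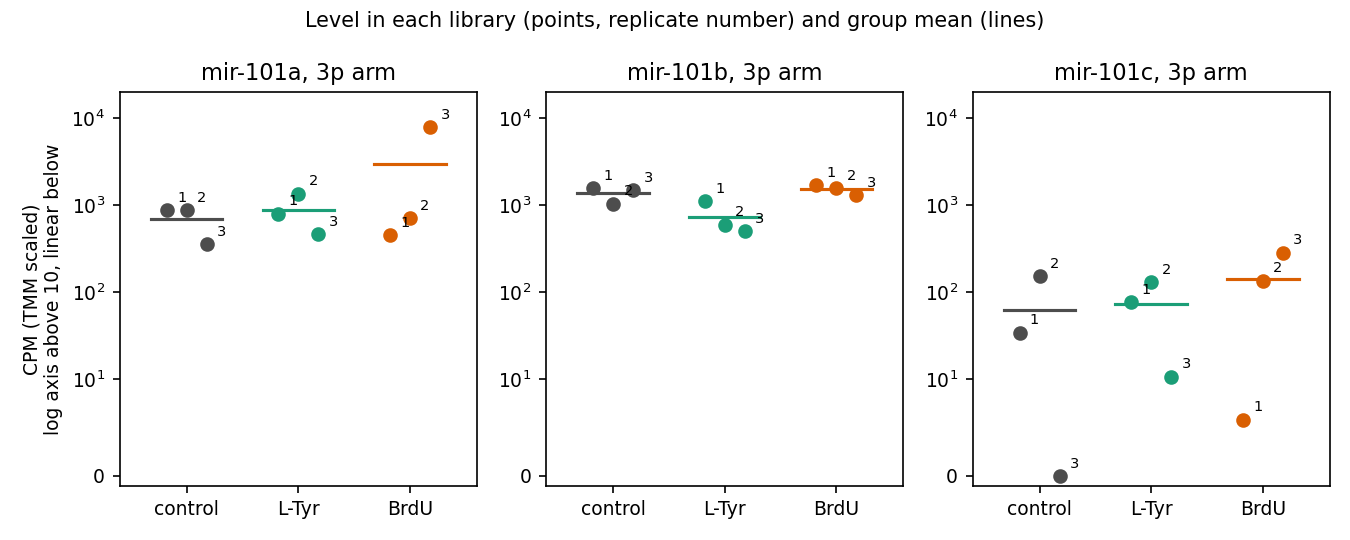
CPM of the 3p arm of mir-101a, mir-101b and mir-101c in each library (points, numbered by replicate) with the group mean (line), on an axis that is logarithmic above 10 CPM and linear below. BrdU replicate 3 stands at 7871 CPM for mir-101a, while for mir-101b it lies within the range of its group (1300 to 1694 CPM).

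Across L-Tyr and control, none of the 3 members was called. In edgeR's quasi-likelihood test over 258 hairpin arms, with p-values adjusted by Benjamini-Hochberg, 6 arms were called at an adjusted p under 0.05, or 2.33%. mir-101b was lower with L-Tyr by a log2 fold change of -0.87 ± 0.42 (SE), with an adjusted p of 0.427. mir-101a differed by 0.33 ± 0.53 (adjusted p = 0.896) and mir-101c by 0.23 ± 1.71 (adjusted p = 0.980). No member had an unadjusted p under 0.05, and DESeq2 called 0 of the 3 where it called 5.01% of the arms to which it gave an adjusted p. The mir-101b difference kept its sign in each of the 6 fits that left out 1 library, from -1.35 to -0.63, whereas that of mir-101a ran from -0.17 to 0.64.

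Across BrdU and control, 10 of 281 arms were called, or 3.56%, and none was a member. mir-101a was higher with BrdU by a log2 fold change of 2.19 ± 1.05 (edgeR adjusted p = 0.300). Without BrdU replicate 3 the value was -0.23 ± 0.53 (adjusted p = 0.924), so that library alone set both size and sign. Without a filter on low counts, edgeR called mir-101a (2.18 ± 0.47, adjusted p = 8.91e-05), the lowest of its 14 alternatives, whose highest adjusted p was 0.924. In that fit 7.54% of all arms were called. DESeq2 gave mir-101a no p in either BrdU comparison. mir-101b differed by 0.19 ± 0.30 (adjusted p = 0.828) and mir-101c by 1.23 ± 1.66 (adjusted p = 0.778), or by 0.23 ± 2.00 without BrdU replicate 3 (adjusted p = 0.959). No member had an unadjusted edgeR p under 0.05, and DESeq2 called 0 of the other 2 and 7.05% of all arms.

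Across BrdU and L-Tyr, 6 of 251 arms were called, or 2.39%, and none was a member. mir-101b was higher with BrdU by 1.09 ± 0.44 on the log2 scale (edgeR adjusted p = 0.334), from 0.88 to 1.46 when 1 library was left out, and it was the only member with an unadjusted p under 0.05. mir-101a was higher by 1.88 ± 1.03 (adjusted p = 0.530), and lower by 0.58 ± 0.63 without BrdU replicate 3 (log2 fold change -0.58, adjusted p = 0.966). Without the filter on low counts it was called (1.93 ± 0.49, adjusted p = 0.00246), as were 4.79% of all arms in that fit. DESeq2 called 0 of the 2 members to which it gave an adjusted p and 3.76% of all arms. This comparison shares its libraries with the other comparisons.

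**Figure D2:**
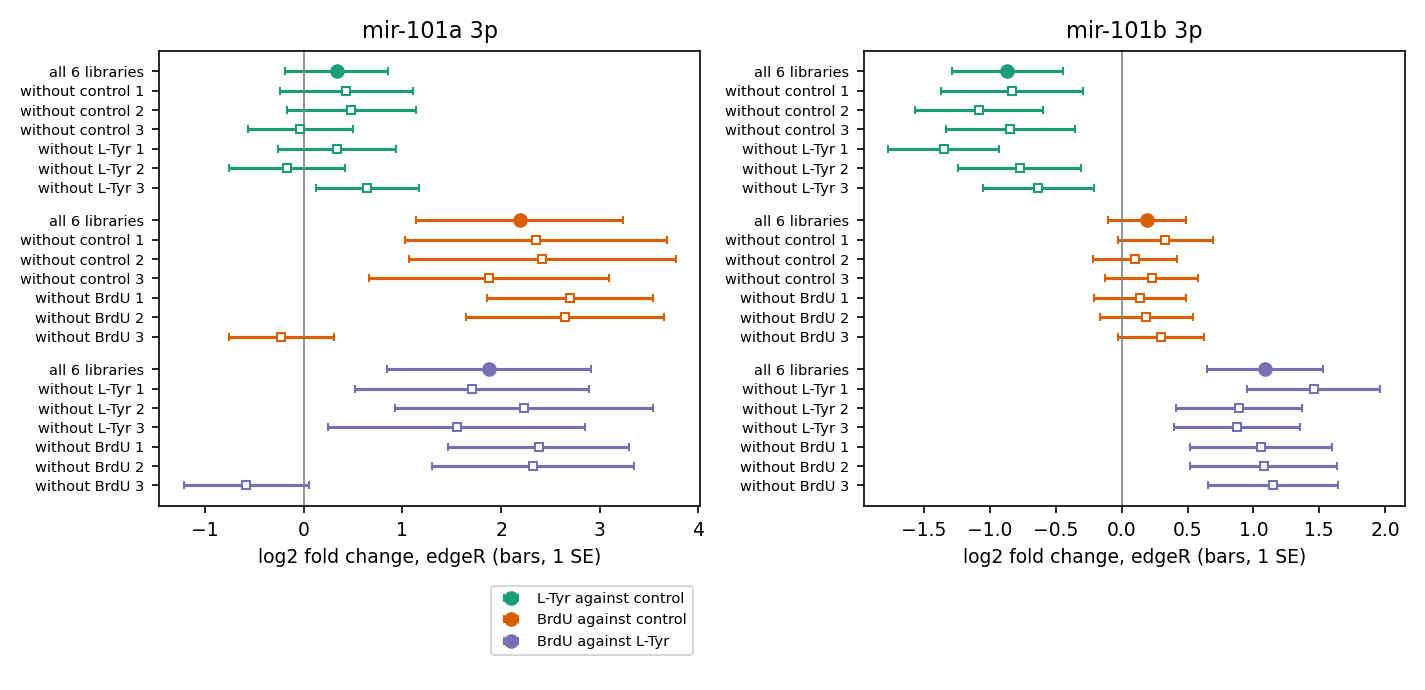
log2 fold change of the mir-101a and mir-101b 3p arms in each comparison by edgeR, with all 6 libraries (filled circles) and without each library in turn (open squares), bars showing 1 SE. For mir-101a both BrdU comparisons fall below 0 (-0.23 and -0.58) without BrdU replicate 3, while mir-101b with BrdU stays at 0.88 to 1.46 above L-Tyr.

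The summed levels were also compared by exact two-sided permutation tests, which with 3 against 3 libraries cannot give a p under 0.1. For mir-101b, BrdU against L-Tyr reached that smallest p (ratio of means 2.05, exact p = 0.1, adjusted p = 0.8 over 24 tests). So did the family sum (4671 ± 4144 CPM with BrdU, 1685 ± 619 with L-Tyr, exact p = 0.1), where the nearest libraries of the groups, at 2154 and 2086 CPM, were almost level. Without BrdU replicate 3 the family sum with BrdU was 2280 ± 178 CPM (n = 2). For mir-101a the exact p was 0.6 for L-Tyr against control, 0.8 for BrdU against control and 0.9 for BrdU against L-Tyr.

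The balance between the hairpins differed from library to library. mir-101b made up 64.5%, 54.3% and 80.6% of the mir-101a and mir-101b counts in control cells (95% Wilson intervals 60.2% to 68.5%, 50.9% to 57.6% and 76.6% to 84.1%). With L-Tyr its share was 58.3%, 30.7% and 52.0%. With BrdU it was 78.9%, 68.9% and 14.2% (the last with an interval of 12.9% to 15.6%). mir-101b was thus the larger member in 7 of 9 libraries, and the smaller in L-Tyr replicate 2 and BrdU replicate 3. The group means were 66.5% ± 13.3 in control, 47.0% ± 14.5 with L-Tyr and 54.0% ± 34.8 with BrdU (SD, n = 3), and no pair of groups separated (exact p = 0.2 to 0.8). Without replicate 3 the BrdU mean was 73.9% ± 7.07 (n = 2), above that of control instead of below it. Across the 9 libraries the log2 CPM of mir-101a and mir-101b were close to unrelated (Pearson's r = -0.01, and -0.27 without BrdU replicate 3), a description of libraries that differ in depth.

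Most listed counts did not begin where the annotated miR-101a-3p begins. No entry was longer than 20 nt, so the 21-nt miR-101a-3p could not be listed whole. The start and seed shares therefore describe the listed entries only. To show these starts, the most abundant sequence of each hairpin at -1 and 0 is given, with a mir-101b sequence at +1 that was at 0 in every library of 1 condition. The sequences are as the table has them, with T for U and the seed in capitals.
mir-101a, start -1: gTACAGTActgtgataactg
mir-101a, start 0: tACAGTACtgtgataactga
mir-101b, start -1: gTACAGTActgtgatagctg
mir-101b, start 0: tACAGTACtgtgatagctga
mir-101b, start +1: aCAGTACTgtgatagctgaa
Start 0 is the first base of miR-101a-3p, and start -1 is the G before it, where the annotated miR-101b-3p begins. Of the mir-101a counts, 57.6% began at -1, 21.1% at 0, 10.7% at +1, 5.54% at +2 and 5.02% at +3. Of the mir-101b counts, 35.8% began at -1, 21.2% at 0, 20.9% at +1, 15.7% at +2 and 6.43% at +3. The mir-101a reads that start at -1 have the seed UACAGUA of the annotated miR-101b-3p, and for the whole family that seed covered 46.4% of the pooled counts against 20.4% for ACAGUAC. Of its 3253 counts, 1633 came from BrdU replicate 3, without which the shares were 37.6% and 21.3%. By library, UACAGUA was the largest seed in 5 of 9, CAGUACU in 3 (control replicate 3 and L-Tyr replicates 2 and 3) and ACAGUAC in 1 (control replicate 1).

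The start varied widely from library to library. mir-101a reads beginning at -1 made up 14.7%, 59.5% and 50.6% in control cells, 56.0%, 34.4% and 23.3% with L-Tyr and 41.0%, 41.8% and 68.9% with BrdU. The same start of mir-101b made up 34.6%, 36.5% and 19.6% in control cells, 65.1%, 15.6% and 5.38% with L-Tyr and 69.8%, 37.6% and 23.2% with BrdU. Among the 9 pairs of replicates within a condition, the 95% Wilson intervals, which cover counting error only, did not overlap in 6 for mir-101a and in 7 for mir-101b. Those of BrdU replicates 1 and 2 overlapped for mir-101a (30.8% to 52.1% and 36.5% to 47.3%), as did those of control replicates 1 and 2 for mir-101b (29.6% to 39.9% and 32.2% to 41.0%). For mir-101b with L-Tyr the intervals ran from 57.8% to 71.8%, from 10.8% to 22.1% and from 2.32% to 12.0%. The conditions overlapped for both hairpins (exact p = 0.4 to 0.9).

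**Figure D3:**
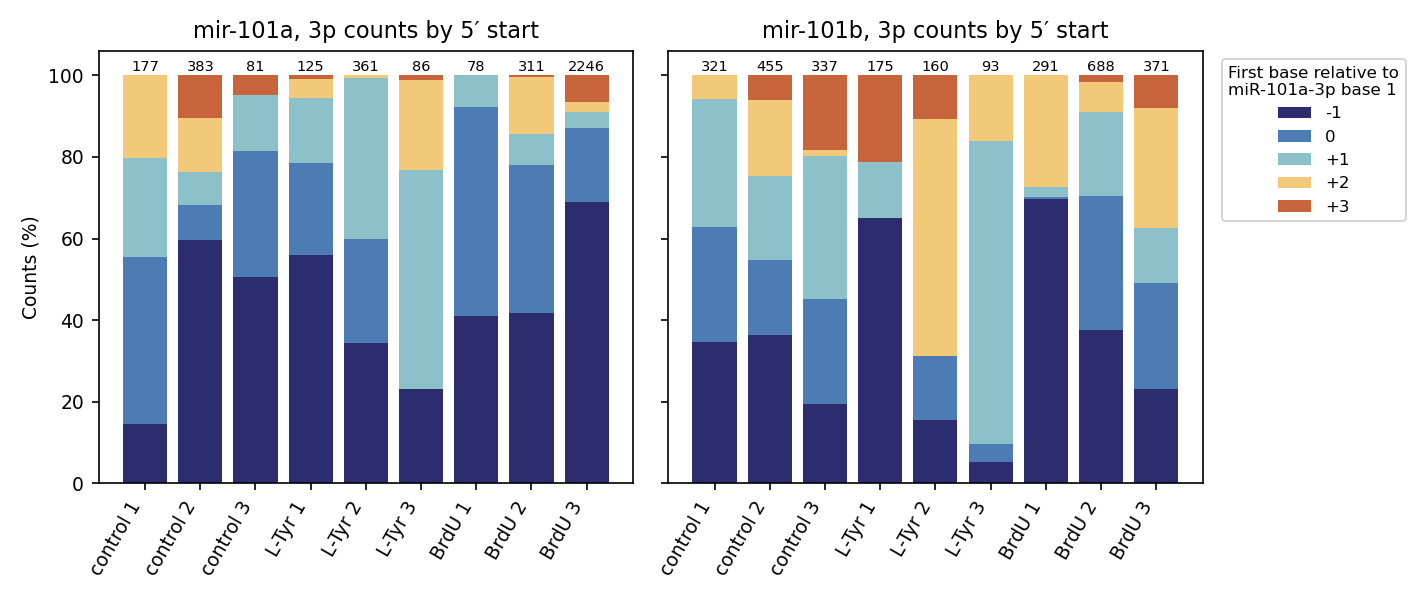
Share of the 3p counts of mir-101a and mir-101b by 5′ start in each library, relative to the first base of miR-101a-3p, with the number of counts above each bar. Reads at -1 range from 14.7% to 68.9% for mir-101a and from 5.38% to 69.8% for mir-101b.

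The rise of mir-101a in BrdU replicate 3 was not equal over the starts. At -1 its level there was 5421 CPM, against 107 to 522 CPM in the other 8 libraries. At 0 it was 1437 CPM against at most 354. At +3 it was 512 CPM against at most 91.6. At +2 the level, 193 CPM, was close to the 177 CPM of control replicate 1, and at +1 the 308 CPM lay below the 537 CPM of L-Tyr replicate 2. None of the 5 starts of mir-101b was highest in BrdU replicate 3.

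Single sequences were carried by few libraries. Of the 46 entries with counts, 9 had counts in a single library and 1 had counts in all 9, the 20-nt mir-101a sequence at -1. That sequence had 26, 188 and 37 counts in control cells, 22, 123 and 2 with L-Tyr and 32, 80 and 1072 with BrdU. The 20-nt mir-101a sequence at 0 had 61, 31 and 25 counts in control cells, 28, 69 and 0 with L-Tyr and 6, 95 and 399 with BrdU.

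For mir-101b, the 20-nt sequence at -1 had 82, 86 and 66 counts in control cells, 114, 0 and 5 with L-Tyr and 203, 233 and 73 with BrdU. L-Tyr replicate 2, with none of it, held 93 of its 160 mir-101b counts in an 18-nt sequence at +2. The 20-nt sequence at 0 had 91, 81 and 86 counts in control cells, 0, 25 and 4 with L-Tyr and 1, 216 and 77 with BrdU. The 20-nt sequence at +1 had 28, 44 and 54 counts in control cells, 0 in each L-Tyr library and 0, 68 and 16 with BrdU. Its control level of 159 ± 71.8 CPM was 10.3-fold above that of 3 counts in each L-Tyr library, a limit that covers counting error only. The edgeR test over all entries gave this 20-nt sequence an adjusted p of 0.208. DESeq2 called it (adjusted p = 0.00428), while the 13 alternatives together spanned 0.00428 to 0.666. It was picked for its 0 with L-Tyr, so these values are no independent support for a change. The 19-nt mir-101b sequence at the same start had counts with L-Tyr as well. They were 50, 50 and 64 in control cells, 23, 0 and 69 with L-Tyr and 0, 72 and 34 with BrdU. The mature name miR-101b-3p, the 19-nt form at -1, had 5, 64 and 0 counts in control cells, 0, 25 and 0 with L-Tyr and 0, 26 and 13 with BrdU.

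mir-101b was spread over fewer sequences with L-Tyr than in control cells. Its most abundant entry took 65.1%, 58.1% and 74.2% of its counts in the L-Tyr libraries, 28.3%, 18.9% and 25.5% in control cells and 69.8%, 33.9% and 20.8% with BrdU. The entries above 0 numbered 4, 4 and 6 with L-Tyr, 11, 14 and 7 in control cells and 4, 12 and 11 with BrdU. L-Tyr libraries also had the fewest mir-101b counts (93 to 175). BrdU replicate 1 had 291 counts in its 4 entries. Neither the contrast nor the part of depth was tested. For mir-101a, L-Tyr and control overlapped in both measures. Its most abundant entry took 38.4%, 34.1% and 53.5% with L-Tyr and 34.5%, 49.1% and 45.7% in control cells. Its entries above 0 numbered 7, 9 and 5 with L-Tyr and 8, 11 and 5 in control cells.

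**Figure D4:**
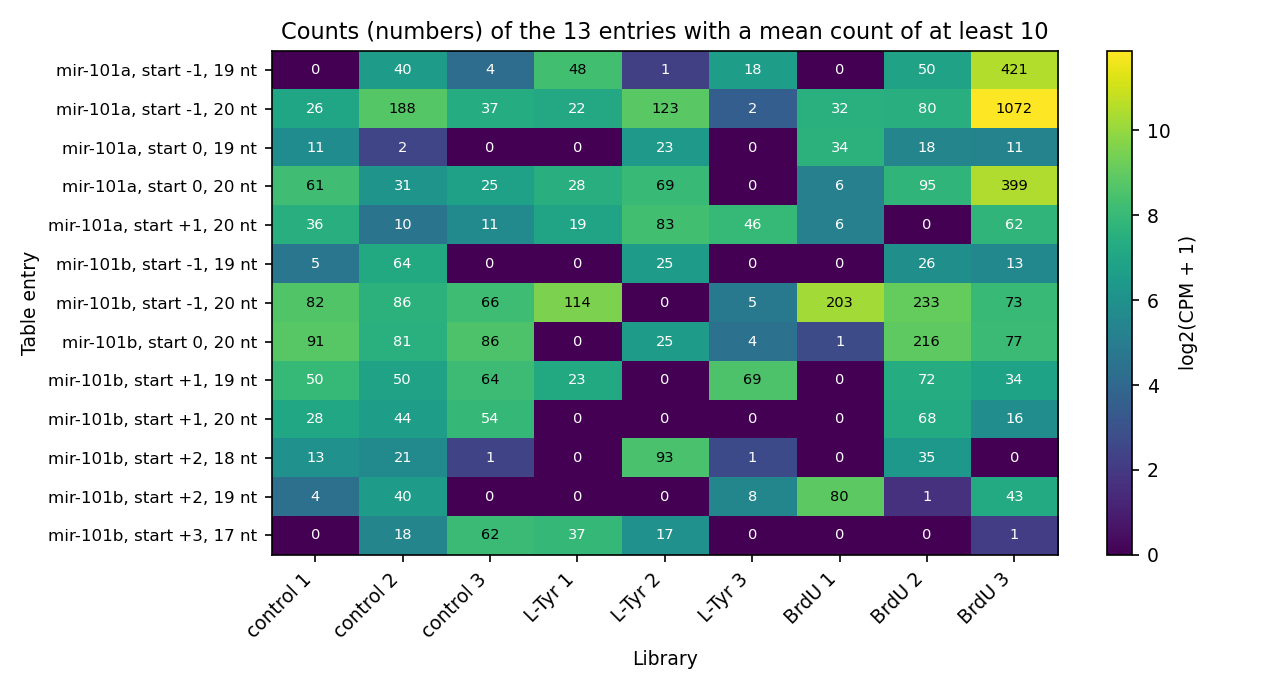
Counts (numbers) of the 13 family entries with a mean count of at least 10, by library, shaded by log2(CPM + 1), and labelled by hairpin, 5′ start relative to miR-101a-3p and length. Many cells are at 0 beside libraries that hold counts of the same entry, and the largest value, 1072, is the mir-101a entry at -1 in BrdU replicate 3.

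Tested entry by entry with edgeR, 1 of 1256 entries (0.0796%) was called for L-Tyr against control, 0 of 1488 (0%) for BrdU against control and 2 of 1234 (0.162%) for BrdU against L-Tyr. None was a family member. After the filter on low counts 10, 12 and 7 of the family entries remained, of which 2, 1 and 0 had an unadjusted p under 0.05. Over all entries tested these were 121, 156 and 90, or 9.63%, 10.5% and 7.29%. DESeq2, fitted without that filter, called 1 of the 11, 0 of the 20 and 0 of the 10 family entries to which it gave an adjusted p. Over all such entries it called 48, 37 and 41, or 2.67%, 1.98% and 2.56%.

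A few sequences departed from both hairpins. Under mir-101a 5 sequence entries and under mir-101b 5 did not occur in their own RefSeq hairpin, and they held 2.96% and 3.32% of the counts. Some ended in a base the hairpin does not have, such as cAGTACTGtgataactgaaa, listed under all 3 hairpins with 38, 10 and 9 counts. Another, cAGTACTGtgatagctgaat, carries the mir-101b base at the position of A16G but was listed under both mir-101a (9 counts) and mir-101b (48 counts). Both are shown because each was listed under more than 1 hairpin, so that its counts were divided between listings. Of all counts, 70.3% for mir-101a and 60.5% for mir-101b were in entries of 20 nt, the longest listed.

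Markers of other cell types moved with BrdU replicate 3. The marker list of stromal and endothelial miRNAs (mir-143, mir-145a, mir-199a and mir-126a) summed to 270500 CPM in that library and to 1711 to 7253 CPM in the other 8 libraries, and all of its 5 hairpins with counts were highest in that library. Leukocyte markers (mir-223, mir-142a and mir-150) summed to 1475 CPM there and to 0 to 67.5 CPM elsewhere, with 2 of 3 hairpins highest in that library. Erythroid markers (mir-451a, mir-144 and mir-486) summed to 7247 CPM there and to 0 to 594 CPM elsewhere, with 2 of 4 hairpins highest in that library. The hepatic mir-122 had 0 CPM in 7 libraries and reached 75.1 CPM in L-Tyr replicate 2. The melanocytic mir-211 and mir-204 were found in every library, at 10670 to 16670 CPM in control cells, 23050 to 25660 with L-Tyr and 7022 to 7638 with BrdU, replicate 3 included. The part of these markers in the mir-101a level was not tested.

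The arms whose log2 CPM ran most like that of mir-101a over the 9 libraries, among 176 with a mean count of at least 50 and no shared sequence, included the same markers. They were mir-143 3p (Pearson's r = 0.94), mir-23a 3p (0.92), a predicted entry that overlaps mir-126a (0.90), mir-126a 3p (0.87) and mir-322 5p (0.85). Without BrdU replicate 3 these fell to 0.64, 0.53, 0.46, 0.13 and 0.47, and mir-143 then ranked 9 of the 176. mir-143 3p had 234 to 1744 counts in the other 8 libraries and 73886 in BrdU replicate 3.

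For mir-101b the most similar arms were mir-99b 3p (r = 0.89), mir-335 5p (0.85), let-7e 5p (0.75), mir-31 5p (0.71) and mir-195a 5p (0.71). Without BrdU replicate 3 the values were 0.89, 0.88, 0.75, 0.74 and 0.71, and the same 5 held ranks 1 to 5. mir-99b 3p had 302, 600 and 421 counts in control cells, 275, 185 and 122 with L-Tyr and 437, 565 and 449 with BrdU. The points in these correlations are libraries of 3 conditions, so they describe likeness over these libraries only.

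Other miRNAs known to act on Ezh2 (mir-26a, mir-26b, mir-138, mir-214, mir-124 and the let-7 family, which restrains growth-promoting genes in many tissues) were taken as a list of 34 arms, 28 of them with counts. None was called by edgeR in any comparison: 0 of 20 tested for L-Tyr against control, 0 of 22 for BrdU against control and 0 of 21 for BrdU against L-Tyr, with an unadjusted p under 0.05 in 5, 4 and 4. Over all arms tested, 35 of 258, 56 of 281 and 32 of 251 had such a p, and edgeR called 2.33%, 3.56% and 2.39%. DESeq2 called 1 of the 22, 0 of the 23 and 0 of the 22 list arms to which it gave an adjusted p. Over all such arms it called 19 of 379, 28 of 397 and 13 of 346, or 5.01%, 7.05% and 3.76%. The list arm called was let-7d 5p, lower with L-Tyr (edgeR log2 fold change -0.97 ± 0.22, adjusted p = 0.0559). The list's median log2 fold change was -0.32, 0.01 and 0.28, against -0.09, -0.05 and 0.08 over all arms tested. Loci with the same mature 5p sequence counted as separate arms, so the list holds fewer independent members than arms. Both let-7a 5p arms had an unadjusted p under 0.05 in each comparison with control. Both mir-26a 5p arms had one for BrdU against L-Tyr.

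The 3 list members with the highest counts were all let-7 arms, and let-7c-1 and let-7c-2 yield the same mature 5p sequence, so their sums share reads. let-7c-2 5p stood at 33890, 27790 and 43750 CPM in control cells, 24950, 25500 and 28460 with L-Tyr and 39000, 20410 and 20780 with BrdU. let-7c-1 5p stood at 32920, 27370 and 42810 CPM in control cells, 23900, 24560 and 29060 with L-Tyr and 38460, 20240 and 21000 with BrdU. let-7b 5p stood at 25950, 22370 and 34650 CPM in control cells, 21610, 25860 and 27010 with L-Tyr and 41400, 20320 and 24980 with BrdU. All 3 overlapped between every pair of conditions. mir-144, whose 3p seed is close to that of miR-101 and which marks erythroid cells, passed the edgeR filter on low counts in none of the 3 comparisons. Its 3p arm stood at 0 CPM in all control libraries, at 0, 37.5 and 0 with L-Tyr and at 69.9, 13.6 and 1703 with BrdU.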

How the data were processed

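Small RNA libraries of 9 B16F1 samples (3 per group) were analysed. The deposited values were raw counts per entry, for which the authors had run Illumina's BaseSpace app Small RNA v1.0. By the authors' account, reads of 17 to 35 nt were aligned to mm9 and to miRBase 21, and a miRNA was named at 100% identity. The sequence entries used here ran from 13 to 20 nt, and some family entries did not match their own hairpin exactly. Per the labels, FastQC, MultiQC and DESeq2 were also used. The authors' normalized table and their comparison tables (mean counts, log2 fold changes, p-values) were not used.

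Entries were summed by hairpin and arm (start number under 35, 5p; otherwise 3p). Each comparison used edgeR 4.0.16 (TMM, filterByExpr, quasi-likelihood F test) on its 6 libraries, in R 4.3.3, with Benjamini-Hochberg adjustment over the whole table. Sums and shares used exact permutation tests (scipy 1.17.1) and 95% Wilson intervals. PCR reads without molecular identifiers are not independent molecules, so intervals and limits cover counting error only. DESeq2 1.42.0, other scalings and filters, a replicate block and fits without each library were alternatives.

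Tested on simulated data for the arms of L-Tyr against control (258 arms), the edgeR fit recovered 69% of changes of 3 and 24% of changes of 1 on the log2 scale. For BrdU against control (281 arms) it recovered 69% and 13%, and for BrdU against L-Tyr (251 arms) 64% and 12%. In each simulation 200 arms were made to change, far more than the 6, 10 and 6 called in the data. So many changes ease the adjusted cutoff, so the share recovered in the data may be lower.

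The members and lists were chosen with earlier results of these data known. Named were all members and arms with counts, family entries with a mean count of at least 10, the list members called or the 3 with the highest counts, and the 5 most similar arms; other entries were named after their values were seen. Sequences came from the deposited table and RefSeq. Genome positions came from NCBIM37 with GENCODE M1. A hairpin sequence of mir-101c was not used here.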

Additional observations from a re-analysis of the deposited data

How the results depend on the processing

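The mir-101a difference in both BrdU comparisons depended on 1 library. With each library left out in turn, its log2 fold change ran from -0.23 to 2.70 for BrdU against control and from -0.58 to 2.38 for BrdU against L-Tyr, each below 0 only without BrdU replicate 3. A sign was taken as turned where it changed and either value lay over 1 SE from 0. By that rule the same library also turned the 20-nt mir-101a sequences at -1 (-0.41 to 3.33 against control, -0.10 to 4.33 against L-Tyr), at 0 (-0.27 to 2.65 and -0.056 to 2.77) and at +1 (-2.38 to 1.26 against control), and the 19-nt sequence at -1 (-1.003 to 3.49 against L-Tyr). The fitted mir-101b arm differences turned under none of the alternatives. Fitted values of members became calls under 6 alternatives: 5 without a filter on low counts, all of mir-101a, and 1 by DESeq2, the 20-nt mir-101b sequence at +1.

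Counts of called arms (L-Tyr against control, BrdU against control, BrdU against L-Tyr) were 14, 50 and 30 without a filter and 19, 28 and 13 by DESeq2. They were 18 and 3 for the BrdU comparisons with all 9 libraries in 1 fit. For BrdU against control, total count scaling left 3 arms (2 higher, 1 lower) where TMM gave 9 higher and 1 lower. That scaling put the median log2 fold change of all arms at 0.07, -0.13 and -0.12, where it was -0.09, -0.05 and 0.08. Left-out libraries gave 0 to 10, 1 to 14 and 0 to 5 arms, moving by over 1.5 times without any library for L-Tyr against control, without control replicate 1 or 2 (1 each) for BrdU against control, and without L-Tyr replicate 3 (0) or BrdU replicate 2 (3) for BrdU against L-Tyr.

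Counts of called entries were 11, 85 and 47 without a filter and 48, 37 and 41 by DESeq2. L-Tyr against control gave 6 entries with total count scaling, 8 at a mean count of at least 50 and 0 without the most abundant entry. With all 9 libraries in 1 fit the BrdU comparisons gave 3 and 1. Left-out libraries gave 1 to 2 entries (2 without L-Tyr replicate 2), 0 to 14 (14 without BrdU replicate 1, 1 without control replicate 1 or 3) and 0 to 3 (3 without L-Tyr replicate 1, at most 1 without any other). Among entries of 20 nt only, the share of mir-101a reads at -1 differed by -26.4 percentage points for L-Tyr against control and 35.5 for BrdU against L-Tyr (exact p = 0.4 and 0.1). The cause of these shifts was not tested.

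The replicate numbers were shared between the groups but did not pair the libraries: deviations of same-numbered libraries correlated at -0.105 to 0.047, and not every library correlated best with its own number. With a replicate block 1 and 0 arms were called in the BrdU comparisons, and 0 entries for L-Tyr against control and 1 for BrdU against control. The block put mir-101a at 0.77 (BrdU against control) and 0.51 (BrdU against L-Tyr), and called no member.

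At 144452 to 424122 counts a library, mir-101c and most single sequences lay near the limit of 3 counts, and changes of 1 on the log2 scale were mostly missed on simulated data.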
